A study of Homo sapiens with 17 samples.

Results

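The CCT/TRiC chaperonin is the cytosolic folding machine of human cells, and its subunits are encoded by 8 genes: TCP1, CCT2, CCT3, CCT4, CCT5, CCT6A, CCT7 and CCT8. These 8 genes were selected by symbol, and each was found once among the 18869 genes of the table. Ribo-STAMP was performed in HEK293T, an established human embryonic kidney line, with constructs that were delivered by lentivirus and switched on by doxycycline. RPS2-STAMP joins APOBEC1, an enzyme that edits C to U, to the ribosomal protein RPS2, so that an mRNA touched by a tagged ribosome acquires edits, and Control-STAMP is APOBEC1 alone. All cells received 50 ng/ml doxycycline for 24 h and were crosslinked with formaldehyde. RNA was then sequenced from the Input, from immunoprecipitates of the nuclear poly(A) binding protein (PABPN IP) and from immunoprecipitates of the cytoplasmic poly(A) binding protein (PABPC IP). According to the paper, lysates were fractionated and the RNA is cytoplasmic, whereas the sample labels state no fractionation. RPS2-STAMP comprised 3 Input, 3 PABPN IP and 3 PABPC IP samples, and Control-STAMP comprised 3 Input, 3 PABPN IP and 2 PABPC IP samples. Editing depends on an overexpressed fusion protein, and only ribosomes that carry it are recorded.

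The subunits of CCT form rings that are stacked back to back and enclose a folding chamber. ATP binding and hydrolysis close a built-in lid over the chamber, and newly made actin, tubulin and WD-repeat proteins are among the best known clients. Each subunit holds a fixed place in the ring, and TCP1, CCT2, CCT4 and CCT5 are known to bind ATP more tightly than CCT3, CCT6A, CCT7 and CCT8. The ATP site contains a short motif written GDGTT in amino acid letters. The codons of this motif, with 2 codons before it and 3 after it, are shown here because they are a coding stretch that the 8 mRNAs have in common, and because cytosine is the base that APOBEC1 converts. Cytosines are in capitals. The table gives a single value per gene and no edit positions, so the capitals mark bases that can be edited and not bases that were.
TCP1: gaagttggagatggaaCtaCttCagtggtt
CCT2: gaagttggtgatggCaCtaCCtCtgttaCC
CCT3: gaggttggagatgggaCCaCatCagtaatt
CCT4: gaagCaggagatggCaCCaCatCagtagtC
CCT5: gaaattggagatggaaCCaCaggagtggtt
CCT6A: ataaCtggtgatggtaCgaCttCtaatgtC
CCT7: gaggtgggtgatggCaCCaCCtCagtgaCC
CCT8: gaagttggagatggCaCaaaCtttgttCtg

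These 30-nt coding stretches were read from the canonical transcripts of GENCODE release 44 and equal the hg38 genome. The full motif was found once in 7 of the subunits, and CCT8 holds another amino acid at its last position. The stretch holds between 3 cytosines, in TCP1 and CCT5, and 8 cytosines, in CCT7. It lies in exon 5 of CCT2 (chr12:69587953-69587982, plus strand), exon 5 of CCT3 (chr1:156333554-156333583, minus strand), exon 4 of CCT4 (chr2:61880335-61880364, minus strand), exon 3 of CCT5 (chr5:10254808-10254837, plus strand), exon 3 of CCT6A (chr7:56054426-56054455, plus strand) and exon 4 of CCT8 (chr21:29067622-29067651, minus strand). In the remaining pair it is split by an intron. The TCP1 stretch begins in exon 3 (chr6:159787743-159787769, minus strand) and ends in the next exon (chr6:159785995-159785997), and the CCT7 stretch begins in exon 3 (chr2:73240541-73240543, plus strand) and continues at chr2:73243004-73243030.

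The 8 genes lie on 7 chromosomes. Their coding regions span 1593 to 1668 nt, against a median of 1320 nt over 9601 protein-coding genes, and they carry 11 to 16 exons, against a median of 9. The median transcript length of the subunits was 2165 nt, and the protein-coding median was 3270 nt. CCT5 is the longest at 3293 nt, the only subunit above that median, and CCT7 the shortest at 1847 nt. Cytosine made up 18.1% of the CCT6A transcript and 23.9% of the CCT3 transcript, the extremes among the subunits, and the protein-coding median was 23.7%. Cytosines with A or U on both sides, the sequence setting APOBEC1 is known to prefer, occurred 57.4 times per kb in CCT7 and 71.7 times per kb in CCT8, and the protein-coding median was 66.3 per kb.

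Editing was measured as normalized EPKM, a rate of edits scaled to transcript length and library size, from which editing in Control-STAMP had been subtracted. A single EPKM per gene and fraction was deposited, as was a single average TPM per gene and fraction. No spread between replicates accompanies them. Differences between fractions therefore have no replicate check, and neighbors in any order of levels cannot be told apart by their spread. The paper's methods state reads per library for the STAMP experiments as a whole, but the table gives no read or edit counts, so the counts behind each value are unknown. Values in the IPs are given as those with PABPC or with PABPN. To place the subunits among other genes, protein-coding genes (PCGs) with at least 5 TPM in both IPs were used. This filter left 9607 of 13473 PCGs and all 8 subunits.

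Editing of the CCT mRNAs was highest in the Input for 6 of the 8 subunits, and it was above 0 in every fraction for 7 of them. Among the PCGs, 26.6% had their highest EPKM in the Input and 50.5% were above 0 in all 3 fractions. The median EPKM of the 8 subunits was 0.208 in Input, 0.120 with PABPC and 0.0972 with PABPN. The corresponding medians over the PCGs were 0.0273, 0.0501 and 0.0334, so the median subunit lay above the median PCG in each fraction while the order of the fractions differed. Single subunits were below the PCG median in the IPs, namely CCT5 with PABPC and TCP1, CCT2 and CCT5 with PABPN. The median subunit was more highly edited than 93.4% of PCGs in Input, 81.6% with PABPC and 82.5% with PABPN. Among 1573 PCGs with at least 50 TPM in every fraction, a group chosen after the data were seen, the same percentiles were 67.2, 49.7 and 63.2, so with PABPC the median subunit sat in the middle of genes of high abundance. The median EPKM of those 1573 PCGs was 0.144 in Input, 0.120 with PABPC and 0.0625 with PABPN. This is the same order of fractions as in the subunits.

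**Figure D1:**
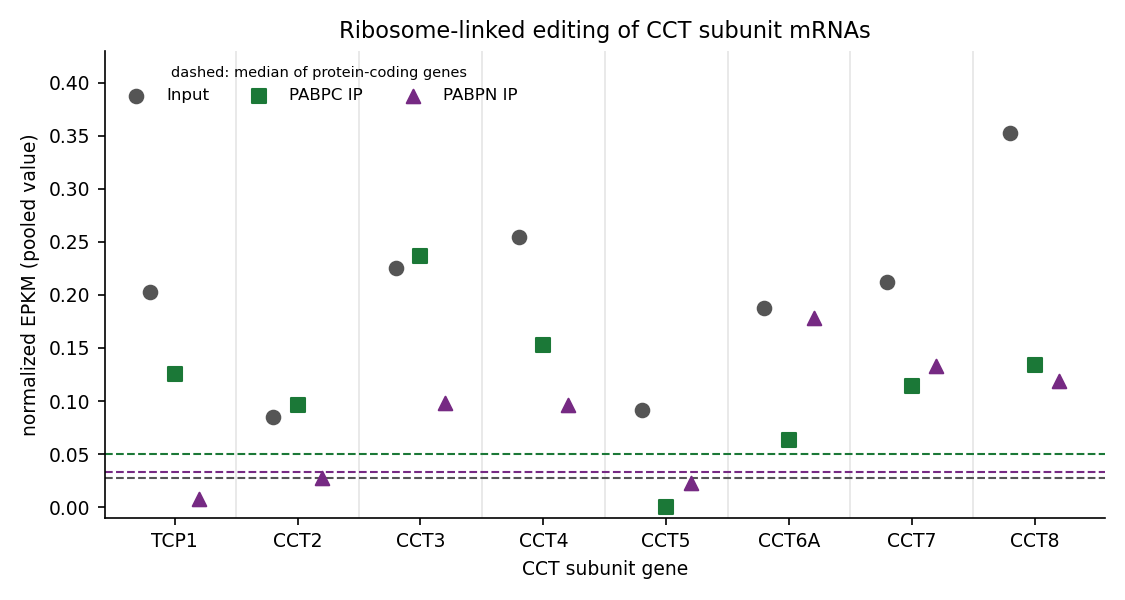
Normalized EPKM (y axis, 1 pooled value per gene and fraction) of the 8 CCT subunit genes (x axis) in the Input (grey circles), PABPC IP (green squares) and PABPN IP (purple triangles). Dashed lines give the median of 9607 PCGs in the same color. The Input point is the highest of the 3 for all subunits except CCT2 and CCT3, and CCT5 is listed at 0 in the PABPC IP.

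The subunits that bind ATP tightly are described first. TCP1, the founding member of the family and its alpha subunit, had an EPKM of 0.203 in Input, 0.126 with PABPC and 0.00756 with PABPN. Its PABPN IP value was the lowest above 0 of any subunit in any fraction, although its TPM in that IP was the third highest of the 8. The EPKM of TCP1 in the PABPC IP was 16.6 times that in the PABPN IP, a ratio that rests on a denominator close to 0.

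CCT2, the beta subunit, had an EPKM of 0.0851 in Input, 0.0960 with PABPC and 0.0274 with PABPN. It was the least edited subunit in the Input, and its PABPC IP value was 3.51 times its PABPN IP value. CCT4, the delta subunit and a known contact for actin in the chamber, had an EPKM of 0.254 in Input, 0.153 with PABPC and 0.0963 with PABPN. CCT4 thus showed a graded order, with a PABPC IP value 1.58 times that of the PABPN IP.

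CCT5, the epsilon subunit, which can assemble into rings by itself when expressed alone, had an EPKM of 0.0915 in Input, was listed at 0 with PABPC, and had 0.0229 with PABPN. It was the only subunit at 0 in any fraction. The table holds no value below 0, and how differences below 0 were treated is not stated, so a listed 0 does not say that ribosomes were absent. CCT5 was not rare in this IP, where its TPM was 154.

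Of the subunits that bind ATP less tightly, CCT3, the gamma subunit, had an EPKM of 0.226 in Input, 0.237 with PABPC and 0.0980 with PABPN. It was the most edited subunit in the PABPC IP, 2.42 times its level in the PABPN IP, and exceeded 96.5% of PCGs there. CCT6A, the zeta subunit, had an EPKM of 0.187 in Input, 0.0630 with PABPC and 0.178 with PABPN. CCT6A showed the opposite order from CCT3, since its PABPN IP value was 2.82 times its PABPC IP value and was the highest of the 8 in that IP.

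CCT7, the eta subunit, had an EPKM of 0.212 in Input, 0.115 with PABPC and 0.133 with PABPN. CCT8, the theta subunit, had an EPKM of 0.352 in Input, 0.134 with PABPC and 0.119 with PABPN. CCT7 and CCT8 thus had similar values in the 2 IPs and higher values in the Input, and the Input value of CCT8 was the highest EPKM of any subunit in any fraction.

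Of the 8 subunits, 5 (TCP1, CCT2, CCT3, CCT4 and CCT8) were more edited with PABPC than with PABPN, and 56.4% of PCGs had this order. The study set out to compare ribosome contacts on transcripts bound by each protein, and for CCT the members did not move together. The median difference, PABPC IP minus PABPN IP, was 0.0360 EPKM, with single differences from -0.115 in CCT6A to 0.139 in CCT3. The difference of medians was 0.0230 EPKM, and the median difference over the 7 subunits above 0 in all fractions was 0.0563 EPKM. With 0.01 EPKM added to every value, 3 of the 8 subunits (TCP1, CCT2 and CCT3) were at least 2-fold more edited with PABPC, as were 36.3% of PCGs. In the other direction, 2 subunits (CCT5 and CCT6A) were at least 2-fold more edited with PABPN, as were 21.1% of PCGs. These shares are close to the background. When 0.1 EPKM was added instead, the 3 became 1 subunit, TCP1 (9% of PCGs), and the 2 became 0 (3.71% of PCGs).

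The contrast with the Input was more uniform. Editing was higher in the Input than in the PABPN IP for 8 of 8 subunits, compared with 47.3% of PCGs. It was higher in the Input than in the PABPC IP for 6 of 8, compared with 37.4% of PCGs. The median differences were -0.103 EPKM for PABPN IP minus Input and -0.0946 EPKM for PABPC IP minus Input. At least 2-fold higher values in the Input were found for 6 of the 8 subunits against the PABPN IP (29.6% of PCGs) and for 3 of the 8 against the PABPC IP (19.5% of PCGs). With 0.1 EPKM added instead of 0.01, these counts fell to 2 (7.11% of PCGs) and 0 (4.26% of PCGs). With a fold of 1.5, the count against the PABPC IP rose to 6 (25.7% of PCGs). Abundant genes leaned the same way. Of the 1573 PCGs with at least 50 TPM in every fraction, 72.5% were higher in the Input than in the PABPN IP, 57.6% were higher in the Input than with PABPC, 66.1% were higher with PABPC than with PABPN, and 51.2% were highest in the Input. The part of abundance in the CCT pattern was not tested.

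The order of the subunits changed from fraction to fraction. In the Input it ran CCT8, CCT4, CCT3, CCT7, TCP1, CCT6A, CCT5 and CCT2, from high to low. In the PABPC IP it ran CCT3, CCT4, CCT8, TCP1, CCT7, CCT2, CCT6A and CCT5. In the PABPN IP it ran CCT6A, CCT7, CCT8, CCT3, CCT4, CCT2, CCT5 and TCP1. CCT6A and TCP1 moved farthest between the IPs, and CCT2 and CCT5 stayed among the lowest 3. In the PABPN IP the tight ATP binders (TCP1, CCT2, CCT4 and CCT5) had EPKM of 0.00756 to 0.0963, and the weaker binders (CCT3, CCT6A, CCT7 and CCT8) had 0.0980 to 0.178. This split was made after the values were seen, CCT4 and CCT3 nearly touch across it, and the same sides overlapped elsewhere.

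All 8 subunit mRNAs were abundant. In the Input, CCT4 was the highest at 301 TPM, followed by CCT3 at 270, CCT7 at 228, TCP1 at 200.4, CCT6A at 157, CCT8 at 139, CCT5 at 109 and CCT2 at 90.2 TPM. In the PABPC IP the order was CCT4 at 486 TPM, CCT3 at 417, TCP1 at 397, CCT7 at 345, CCT6A at 255, CCT8 at 215, CCT5 at 154 and CCT2 at 110 TPM. In the PABPN IP it was CCT4 at 323 TPM, CCT3 at 304, TCP1 at 247, CCT6A at 217, CCT7 at 166, CCT8 at 123, CCT2 at 102 and CCT5 at 90.0 TPM. CCT4 and CCT3 therefore led in every fraction, and CCT2 and CCT5 closed the order in every fraction. The median PCG had 15.8 TPM in Input, 28.9 TPM with PABPC and 38.4 TPM with PABPN, well below the lowest subunit in each case.

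**Figure D2:**
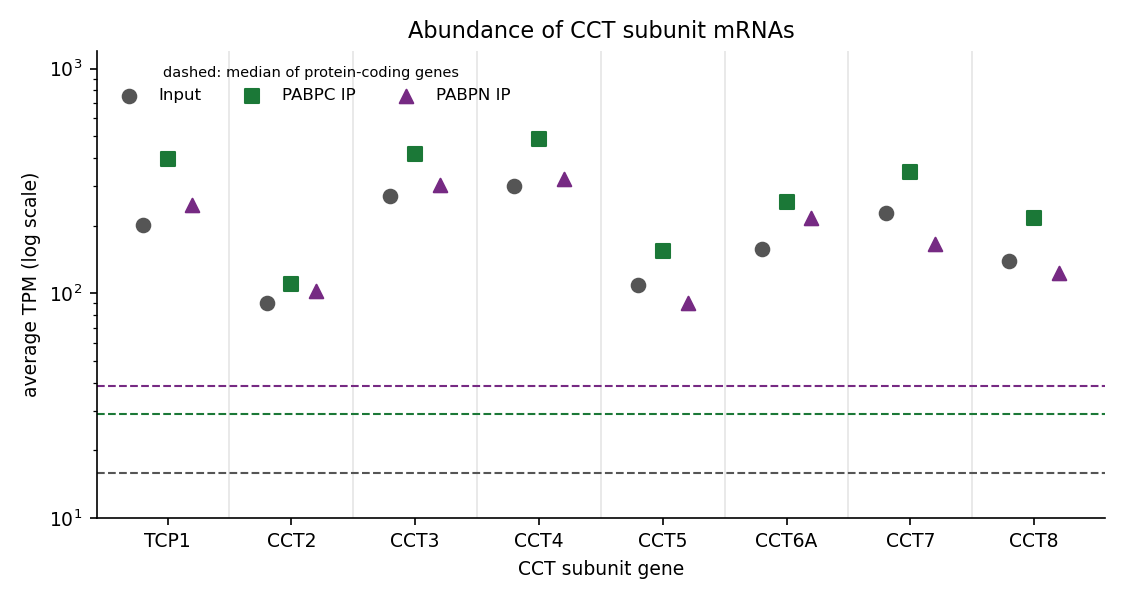
Average TPM (y axis, log scale) of the 8 CCT subunit genes (x axis) in the Input (grey circles), PABPC IP (green squares) and PABPN IP (purple triangles), with dashed lines for the median of 9607 PCGs. The PABPC IP point is the highest for all 8 subunits, and all points lie above the PCG medians.

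As deposited, 8 of 8 subunits had more TPM with PABPC than in Input, and 5 of 8 had more with PABPN than in Input. Most genes shared this shift, because the median PCG was 0.99 higher on the log2 scale in the PABPC IP and 1.14 higher in the PABPN IP than in the Input. The exact share of PCGs above the Input was not counted, so the counts of subunits alone do not place them among PCGs. Listed TPM summed to 854272 in Input, 995724 with PABPC and 975719 with PABPN. Log2 ratios were therefore centered on the median of the PCGs, and a negative value means a smaller rise than the median PCG. Without centering, the median log2 ratio of the subunits was 0.63 for PABPC IP over Input and 0.14 for PABPN IP over Input, so the directions given next hold only relative to other PCGs.

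Relative to the median PCG, CCT mRNAs were lower in the PABPN IP than in the Input. The centered log2 ratio was below 0 in 8 of 8 subunits (50% of PCGs by construction) and at least 0.5 below 0 in 8 of 8 (21.6% of PCGs). It ranged from -1.59 in CCT7 to -0.67 in CCT6A, with a median of -1.002. Between these lay CCT5 at -1.41, CCT8 at -1.31, CCT4 at -1.04, CCT3 at -0.97, CCT2 at -0.96 and TCP1 at -0.84. Low recovery with PABPN was common among abundant genes, of which 87.5% were below 0 with a median of -0.61, and the 8 subunits were all below that median as well.

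For PABPC IP over Input, the subunits lay on the other side of the median PCG from most abundant genes. The centered log2 ratio was below 0 in 8 of 8 subunits, as in 50% of all PCGs by construction and in 27.5% of PCGs with at least 50 TPM in every fraction. The subunit median was -0.36, and the median of the abundant PCGs was 0.29. CCT2 was the lowest at -0.71 and the only subunit at least 0.5 below 0 (18.1% of PCGs), followed by CCT5 at -0.49, CCT7 at -0.39, CCT8 at -0.36, CCT3 at -0.36, CCT4 at -0.30 and CCT6A at -0.29. TCP1 was at the PCG median, at -0.00065, and above 0 when every listed PCG was used for centering, which left 7 of 8 below 0. Set against the abundant PCGs, the median of the subunits was -0.65.

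Between the IPs, the subunits were recovered more with PABPC than with PABPN. The centered log2 ratio of TPM, PABPC IP over PABPN IP, was above 0 in 8 of 8 subunits (50% of PCGs by construction) and at least 0.5 in 6 of 8 (30.4% of PCGs). Values were 1.25 in CCT7, 0.997 in CCT8, 0.97 in CCT5, 0.88 in TCP1, 0.78 in CCT4, 0.65 in CCT3, 0.43 in CCT6A and 0.29 in CCT2. The subunit median of 0.83 was close to the median of the abundant PCGs, 0.90, of which 88% were above 0, and centering on those genes turned it to -0.064. More CCT mRNA with PABPC than with PABPN was thus a property shared with abundant PCGs in general. The subunits took 0.175% of listed TPM in Input, 0.239% with PABPC and 0.161% with PABPN.

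The 20S proteasome core and prefoldin, the cofactor that hands unfolded actin and tubulin to CCT, were set beside CCT as complexes of fixed composition. All 14 proteasome genes and all 6 prefoldin genes were in the table and passed the TPM filter. For PABPC IP over Input, 8 of 8 CCT subunits were below 0, or 7 of 8 with every listed PCG used for centering. Above 0 were 6 of 6 prefoldin genes (median 0.43) and 12 of 14 proteasome genes (median 0.13), as were 50% of PCGs by construction and 72.5% of PCGs with at least 50 TPM in every fraction. For PABPN IP over Input, the medians were -1.002 for CCT, -1.09 for the proteasome core and -0.68 for prefoldin. For PABPC IP over PABPN IP they were 0.83, 1.21 and 1.14, beside 0.90 for PCGs with at least 50 TPM in every fraction. Coding length moved with the difference in PABPC IP over Input, with medians of 1626 nt for CCT, 741 nt for the proteasome core and 432 nt for prefoldin, and its part was not tested.

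**Figure D3:**
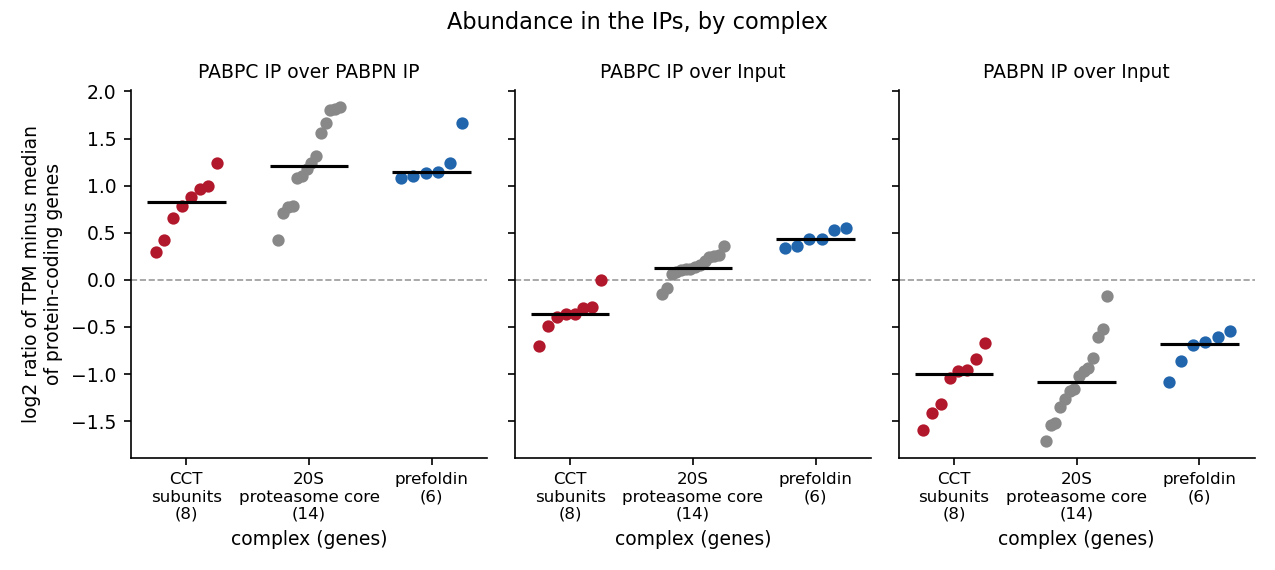
Log2 ratio of TPM between fractions minus the median of 9607 PCGs (y axis) for the genes of 3 complexes (x axis, number of genes in brackets). Each point is a gene, sorted within its complex, and black bars are medians. In the middle panel, PABPC IP over Input, the 8 CCT points lie at or below 0 and the 6 prefoldin points above it.

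For editing, the medians of CCT and prefoldin ran from Input to PABPC IP to PABPN IP, from high to low. The medians of PCGs with at least 50 TPM in every fraction ran the same way. The proteasome core also had its highest median in the Input, but its medians in the IPs were nearly equal, with 7 genes in each direction. Median EPKM of the proteasome core was 0.158 in Input, 0.127 with PABPC and 0.126 with PABPN, and 7 of its 14 genes were highest in the Input. Median EPKM of prefoldin was 0.0979, 0.0824 and 0.0254 in the same order, and 2 of its 6 genes were highest in the Input. CCT thus had the highest Input median EPKM of the 3 complexes. It also had the highest median TPM in the Input, 179 against 105 in the proteasome core and 43.9 in prefoldin. Per 100 TPM the ranking was reversed, with Input medians of 0.0937 EPKM in CCT, 0.159 in the proteasome core and 0.284 in prefoldin. The shares of genes highest in the Input are set against 26.6% of all PCGs and 51.2% of PCGs with at least 50 TPM in every fraction.

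The CCT genes also had the lowest coefficients of variation of the 3 complexes in the Input, for EPKM and for TPM. EPKM in the Input was above 0 for 8 of 8 CCT genes, 12 of 14 proteasome genes and 5 of 6 prefoldin genes. The same held for 7507 of 9607 PCGs and for 1400 of 1573 PCGs with at least 50 TPM in every fraction. The proteasome and prefoldin genes listed at 0 enter the EPKM coefficients of their complexes, which were not computed without them. The coefficient of variation of EPKM over the subunits was 0.428 in Input, 0.595 with PABPC and 0.709 with PABPN. For TPM it was 0.406, 0.452 and 0.458. The proteasome core had coefficients of 0.868, 0.545 and 0.634 for EPKM and 0.638, 0.704 and 0.687 for TPM, and prefoldin had 1.35, 1.17 and 1.29 for EPKM and 0.871, 0.819 and 0.824 for TPM. In the IPs the proteasome core had the lower coefficient for EPKM. Without the highest and the lowest subunit, the EPKM coefficients of CCT were 0.285 in Input, 0.276 with PABPC and 0.564 with PABPN. The Input and PABPC IP values therefore depended on the extreme subunits. The highest subunit exceeded the lowest 4.14-fold in EPKM and 3.34-fold in TPM in the Input. In the PABPN IP these ratios were 23.5-fold and 3.58-fold, and in the PABPC IP, where CCT5 was listed at 0, only the TPM ratio of 4.43-fold could be formed.

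Over all 8 subunits, division by abundance did not lower the coefficient of variation in the Input. It was 0.501 for EPKM per 100 TPM and 0.428 for EPKM. CCT8 was the highest at 0.253 EPKM per 100 TPM, and the others had 0.0837 to 0.120. Without CCT8 the coefficient per 100 TPM was 0.137, so the value over all 8 rested on that subunit. The ratio to TPM was added after the values were seen. In the Input, the coefficient of EPKM per 100 TPM was 0.675 in the proteasome core and 0.700 in prefoldin. Both include every gene, also those listed at 0 EPKM, so their counterpart is the 0.501 of all 8 subunits.

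**Figure D4:**
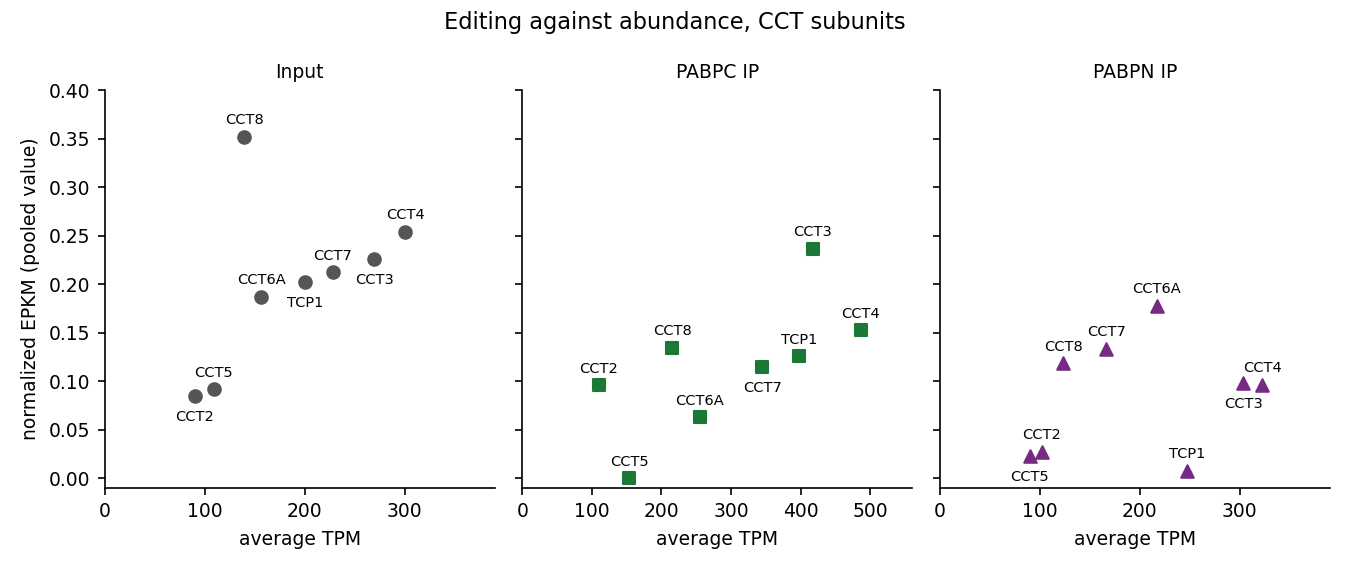
Normalized EPKM (y axis) against average TPM (x axis) for the 8 CCT subunits, each point a gene, in the Input (left), PABPC IP (middle) and PABPN IP (right). In the Input CCT8 is the highest point at 0.352 EPKM and 139 TPM, and in the PABPN IP TCP1 lies near 0 at 247 TPM.

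Across the 8 subunits, Spearman's rho between EPKM and TPM was 0.64 in Input, 0.74 with PABPC and 0.12 with PABPN, as a description over genes that are not independent replicates. Over the PCGs it was 0.53, 0.45 and 0.25. With TPM as deposited, edits per unit of mRNA were highest in the Input for 8 of 8 subunits, as for 45.2% of PCGs and 70.9% of those with at least 50 TPM in every fraction. With IP TPM scaled by the shift of the median PCG, an alternative added after the data were seen, this held for 4 of 8 (25.3% and 46% of PCGs), since CCT2 and CCT3 were then highest with PABPC and CCT6A and CCT7 with PABPN. The median was 0.0937 EPKM per 100 TPM in Input, 0.0324 with PABPC and 0.0311 with PABPN, and the PCG medians were 0.161, 0.138 and 0.0704. The median subunit, which exceeded most PCGs in EPKM, was thus below the median PCG per unit of mRNA in every fraction. PCGs with at least 50 TPM in every fraction had medians of 0.130, 0.0486 and 0.0372, also above the subunits. Samples that entered the average TPM are not named, so the numerator and denominator may come from different samples.

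As a description of 8 genes only, rho between EPKM and the cytosine share was 0.14 in Input, 0.33 with PABPC and -0.19 with PABPN, and with cytosines between A or U it was 0.24, 0.12 and -0.36. Dividing EPKM by the cytosine share gave coefficients of variation of 0.472 in Input, 0.534 with PABPC and 0.755 with PABPN, close to those of EPKM itself. CCT8, the most edited subunit in the Input, had a cytosine share of 18.2%, next to the lowest of the 8, and the highest density of cytosines between A or U, at 71.7 per kb.

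Several CCT genes overlap other annotated genes, and regions shared by overlapping genes had been removed before TPM was computed. The authors' annotation was built from an earlier GENCODE release, so the shares given here need not be those removed. In GENCODE release 44, 30.8% of the exonic bases of CCT5 over all its transcripts lie under exons of another gene, a long noncoding RNA on the opposite strand. The share was 16.9% in CCT4, 12.4% in TCP1, whose neighbor ACAT2 runs on the other strand, and 2.54% in CCT8. It was 0% in CCT2, CCT3, CCT6A and CCT7. Pseudogenes can share reads with their parent gene. Pseudogenes named after a subunit exist for 7 of the 8, with none named for CCT2 and 4 named for CCT6A. The table lists CCT6P1, CCT6P3 and CCT8P1. CCT6P1 had 7.68 TPM in Input, 9.94 TPM with PABPC and 45.1 TPM with PABPN, and CCT6P3 had 1.47, 1.77 and 6.51 TPM. Both were highest in the PABPN IP, unlike CCT6A, whose highest TPM was in the PABPC IP. CCT6P1 had 0.0332 EPKM in the Input and was listed at 0 in the IPs, CCT6P3 was listed at 0 throughout, and CCT8P1 was at 0.00984 EPKM in the PABPN IP only and has no TPM. Values of CCT6A are uncertain to the extent that reads are shared with these copies.

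Most cofactors and relatives of CCT were less abundant than the subunits, but their ranges overlapped. UXT had 95.5 TPM in Input and the prefoldin gene VBP1 had 136 TPM, both above CCT2. Of the phosducin-like cofactors, 3 of 4 were listed (PDCL, PDCL3 and TXNDC9), with a median of 13.8 TPM in the Input, and PDCL3 was listed at 0 EPKM in every fraction. The prefoldin-like genes URI1, UXT and PDRG1 had a median of 31.2 TPM in the Input and, at 3 of 3, centered PABPC IP over Input ratios above 0 (50% of PCGs by construction). Of the related chaperonin genes, 4 of 5 were listed. CCT6B, the testis form of CCT6A, had 0.357 TPM in the Input and 0 EPKM in every fraction, and BBS10, a chaperonin-like protein of the cilium base, had 9.82 TPM in the Input and 101 TPM in the PABPN IP. HSPD1, the mitochondrial chaperonin and a distant homolog of the subunits, had an EPKM of 0.267 in Input, 0.0567 with PABPC and 0.121 with PABPN. Its centered PABPC IP over Input ratio of -0.55 lay within the range of the CCT subunits, whereas its small partner HSPE1 was at 0.47.

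The genes whose values were most like those of CCT were found by distance to the median of the 8 subunits over 6 values, the log2 EPKM and log2 TPM in 3 fractions. The nearest 5 PCGs were ANP32B at a distance of 0.298, HNRNPUL1 at 0.565, STRAP at 0.662, TUBG1 at 0.690 and TEX261 at 0.750. ANP32B had an EPKM of 0.187 in Input, 0.117 with PABPC and 0.0993 with PABPN. Among the subunits, CCT7 was the most typical at 0.630, with 2 other PCGs closer to the median. CCT5 was the least typical at 4.51, with 1887 other PCGs closer, and TCP1 and CCT2 followed at 2.68 and 2.75.

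Of the genes known from HEK293T cells, all 4 were listed. VIM had 184 TPM in the Input, KRT18 had 24.8, NEFM had 8.998 and KRT8 had 2.16 TPM. COL1A1, a fibroblast gene, had 1.90 TPM, and the leukocyte gene PTPRC, the hepatocyte gene ALB and the erythroid gene HBB were not listed. The precipitated proteins are encoded by PABPN1, at 101 TPM in the Input, and PABPC1, at 466 TPM.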

How the data were processed

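Per the submitters' processing notes and the paper's methods, alignment by the authors used STAR and hg38, and reads were counted with featureCounts 2.0.2 on an annotation without regions of overlapping genes. The deposited EPKM is a signal from which the authors subtracted editing in Control-STAMP. The deposited TPM, made by the authors, adds exonic and intronic TPM and is averaged by fraction, and which samples entered is not stated. Each gene occupies 3 rows with the same TPM, so TPM was read once per gene.

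From these values, differences, ratios, medians, percentiles, coefficients of variation and Spearman's rho were computed with Python 3.11.15, pandas 2.3.3, NumPy 2.4.6 and SciPy 1.17.1, and the calculations were checked on simulated data. With pooled values only, no test was made. Folds of EPKM used a pseudocount of 0.01. Likeness was Euclidean distance over log2(EPKM + 0.01) and log2(TPM + 1). Sequence features came from GENCODE release 44, with Biopython 1.88, on the same build as the authors used. Genes named are the 8 subunits, their pseudogenes, listed cofactors, related complexes, clients and markers, and the 5 most alike PCGs. The members and lists were chosen with earlier results of these data known.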

Additional observations from a re-analysis of the deposited data

How the results depend on the processing

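No paired analysis was possible because only pooled values per fraction were given, and for the same reason no replicate was left out in turn. A value was counted as moved when it changed by over 1.5 times. Of 54 alternatives for 23 results, some added after the data were seen, 38 were within this limit, 13 moved and 3 changed sign. For the EPKM difference PABPC IP minus PABPN IP (0.0360), the difference of medians was 0.0230, and the 7 subunits above 0 in all fractions gave 0.0563. With a pseudocount of 0.1, 1 subunit instead of 3 was at least 2-fold more edited with PABPC than with PABPN, 0 instead of 2 were so in the other direction, and 2 instead of 6 and 0 instead of 3 were at least 2-fold more edited in Input than with PABPN and with PABPC. With a fold of 1.5, 6 subunits instead of 3 were more edited in Input than with PABPC. With IP TPM scaled by the shift of the median PCG, EPKM per TPM was highest in the Input for 4 subunits instead of 8. Without centering, the median log2 TPM ratio over the Input was 0.63 for the PABPC IP and 0.14 for the PABPN IP, since centering subtracts the shift of the median PCG. Centering on PCGs with at least 50 TPM, added after the data were seen, gave -0.65, -0.40 and, for PABPC IP over PABPN IP, -0.064. Against those PCGs the median EPKM percentile in the PABPC IP was 49.7. Without the highest and the lowest subunit, the coefficient of variation of EPKM was 0.285 in Input and 0.276 with PABPC. Read and edit counts per gene are not given, so small EPKM values such as those of TCP1 in the PABPN IP have no stated precision.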

Other observations

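The client proteins of CCT were encoded by mRNAs with a wide range of editing. All 20 listed clients were in the table and passed the TPM filter, and 10 of the 20 had their highest EPKM in the Input, as did 26.6% of PCGs and 51.2% of PCGs with at least 50 TPM in every fraction. ACTB, a main cytoplasmic actin, had an EPKM of 0.889 in Input, 1.09 with PABPC and 0.661 with PABPN, and ACTG1, the other cytoplasmic actin, was listed at 0 in the Input with 0.151 and 0.0482 in the IPs. Their TPM in the Input was similar, at 1891 for ACTB and 1967 for ACTG1. TUBB, a beta tubulin, had an EPKM of 0.679 in Input, 0.133 with PABPC and 0.107 with PABPN. Its order of fractions was that of TCP1, CCT4 and CCT8, and of the medians of PCGs with at least 50 TPM in every fraction. The centered log2 TPM ratio of PABPC IP over Input was above 0 in 11 of the 20 clients (50% of PCGs by construction and 72.5% of PCGs with at least 50 TPM in every fraction), with a median of 0.01. It was below 0 in the other 9, of which RPTOR at -0.95, TUBB at -0.46 and TUBB4B at -0.40 were the lowest. The centered PABPN IP over Input ratio was below 0 in 19 of the 20 clients (50% of PCGs by construction and 87.5% of PCGs with at least 50 TPM in every fraction), with a median of -0.80. VHL, a tumor suppressor folded by CCT, was the exception at 1.16.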
